A study of Mus musculus with 6 samples.

Results

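The 9 genes Parp14, Stat2, Irf9, Isg15, Bst2, Ifih1, Oasl2, Rtp4 and Xaf1 belong to the interferon response, and they were read as a panel in rod photoreceptors that carried short hairpin RNAs (shRNAs). They were taken by symbol from the deposited gene tables, as 9 of 52143 genes. Parp14 was chosen by its gene level in these libraries, which was seen to be high in 2 with the Jun shRNA, so its values are a description with no test. The other 8 genes were named for what they do, though with earlier results of these data known. The 3 Jun shRNA libraries came from mouse retinas electroporated on postnatal day 0 with a plasmid encoding an shRNA against Jun, at 2.5 µg/µl, and the 3 control libraries from retinas that received a pLKO.1 plasmid with a scrambled hairpin at the same amount. All 6 were also given a plasmid with EGFP driven by the Nrl promoter, which is active in rods, at 1.5 µg/µl. On postnatal day 10, sorted cells with EGFP were read by low-input full-length RNA sequencing. No group without a hairpin plasmid is used here, a single hairpin sequence stands for the Jun shRNA, and no label ties a library to an animal or litter, so the p-values reflect library-to-library spread that may be partly technical. In sorted bulk samples, fewer cells of a type and less RNA per cell cannot be told apart.

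Cells sense foreign or misplaced nucleic acids through receptors such as the RNA helicase encoded by Ifih1, and respond by secreting type I interferons. Interferon bound to its receptor activates the JAK kinases, and STAT2 acts with IRF9 in the ISGF3 complex, which binds a repeated GAAA element in the promoters of interferon-stimulated genes. Long double-stranded RNA is a classical trigger, and short hairpins have been known to start the same programme in some cells, which is why such genes are read as a check on shRNA experiments. Most interferon-stimulated genes are low in unstimulated neurons.

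The promoter sequences of 2 antiviral effectors show the element. Both strands of the RefSeq promoters (GRCm38.p6, 250 bases before to 50 bases after each gene's start) were searched for GAAANNGAAA, where overlapping matches count separately, and matches are in capitals. The Isg15 promoter, chr4:156200769-156201068 on the minus strand, holds 3 overlapping matches that begin 78 to 66 bases before the start. The Bst2 promoter, chr8:71537423-71537722 on the minus strand, holds 2.
Isg15: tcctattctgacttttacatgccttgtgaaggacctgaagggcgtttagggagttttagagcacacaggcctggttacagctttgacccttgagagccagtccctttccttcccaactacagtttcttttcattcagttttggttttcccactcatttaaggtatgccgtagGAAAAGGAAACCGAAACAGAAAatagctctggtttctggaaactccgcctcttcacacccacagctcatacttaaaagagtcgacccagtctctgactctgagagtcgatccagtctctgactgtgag
Bst2: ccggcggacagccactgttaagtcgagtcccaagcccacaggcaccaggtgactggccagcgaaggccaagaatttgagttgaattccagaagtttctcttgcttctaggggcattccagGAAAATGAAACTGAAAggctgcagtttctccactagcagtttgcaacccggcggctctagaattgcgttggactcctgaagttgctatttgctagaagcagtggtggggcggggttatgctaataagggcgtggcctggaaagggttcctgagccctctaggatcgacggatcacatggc

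Of the 9 genes, 7 had a promoter in that table and 4 of these held a match, which Stat2 and Ifih1 had once each. No match was found in the windows of Oasl2, Xaf1 or Irf9. Among all 32851 promoters 3.44% held a match, and counted by gene symbol 3.99% of 27025 did. Among 71 interferon-stimulated genes with a promoter, these 7 included and also counted by symbol, 40 did (56.3%). A match is a run of letters and not a measured binding site.

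The sequence on which the Parp14 values rest is of another kind. Parp14 (ENSMUSG00000034422, chr16:35832874-35871544, minus strand) encodes an ADP-ribosyltransferase of the PARP family. In GENCODE vM21 (GRCm38) it has a coding transcript of 7417 bases in 17 exons and 2 retained-intron transcripts, a short one of 580 bases and a long one of 4026 bases. The short one ends inside the intron that follows exon 2 of the coding form. The 224 intron bases it carries, chr16:35865925-35866148, are given 5′ to 3′ on the minus strand, and the capitals mark AATCCCAGC, letters that mouse B1 repeats commonly carry.
Parp14 short transcript, intron part: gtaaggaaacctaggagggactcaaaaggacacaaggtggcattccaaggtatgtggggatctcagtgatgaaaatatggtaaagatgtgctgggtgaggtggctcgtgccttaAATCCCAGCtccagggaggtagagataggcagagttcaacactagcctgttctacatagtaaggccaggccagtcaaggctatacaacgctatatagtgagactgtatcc

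Those letters, read on the transcript's strand, occur in 5.36% of 21848 retained-intron transcripts and in 3.43% of 58797 coding transcripts of that annotation. Of the 224 runs of 31 bases in the short transcript that reach into the intron, 223 occur in no other annotated transcript. Of all 550 such runs in this transcript, 81 also occur in transcripts of 1 other gene. The library kits named in the labels mark no strand, so reads in this stretch cannot be assigned to the Parp14 strand.

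Library totals ran from 13211300 to 13998400 counts in the Jun shRNA group and from 32150100 to 105801000 in the control group, so depth and group cannot be told apart. Levels are in CPM after TMM scaling, that is, counts scaled to a common library total, and 3 counts correspond to 0.169 to 0.204 CPM in Jun shRNA libraries and to 0.0333 to 0.108 CPM in control libraries. Jun, the hairpin's target, had 1.84, 17.6 and 19.3 CPM in Jun shRNA libraries, against 6.50 ± 0.655 CPM in control libraries (SD, n = 3). Its log2 fold change was 0.99 (SE 1.44, adjusted p = 0.764 by edgeR's quasi-likelihood test), and the libraries are called by their labels here since the target was not shown to be lower. Libraries of 1 group resembled each other poorly, with Spearman correlations across genes of 0.613 to 0.637 within Jun shRNA, 0.694 to 0.757 within control and 0.508 to 0.559 between the groups. Rod markers were the most abundant list in every library, summing to 56930, 40540 and 56310 CPM in Jun shRNA libraries and to 158900, 163100 and 153300 CPM in control libraries. Markers of microglia and macrophages summed to 24.8, 16.6 and 51.9 CPM in Jun shRNA libraries, against 1295, 958 and 1104 CPM in control libraries.

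**Figure D1:**
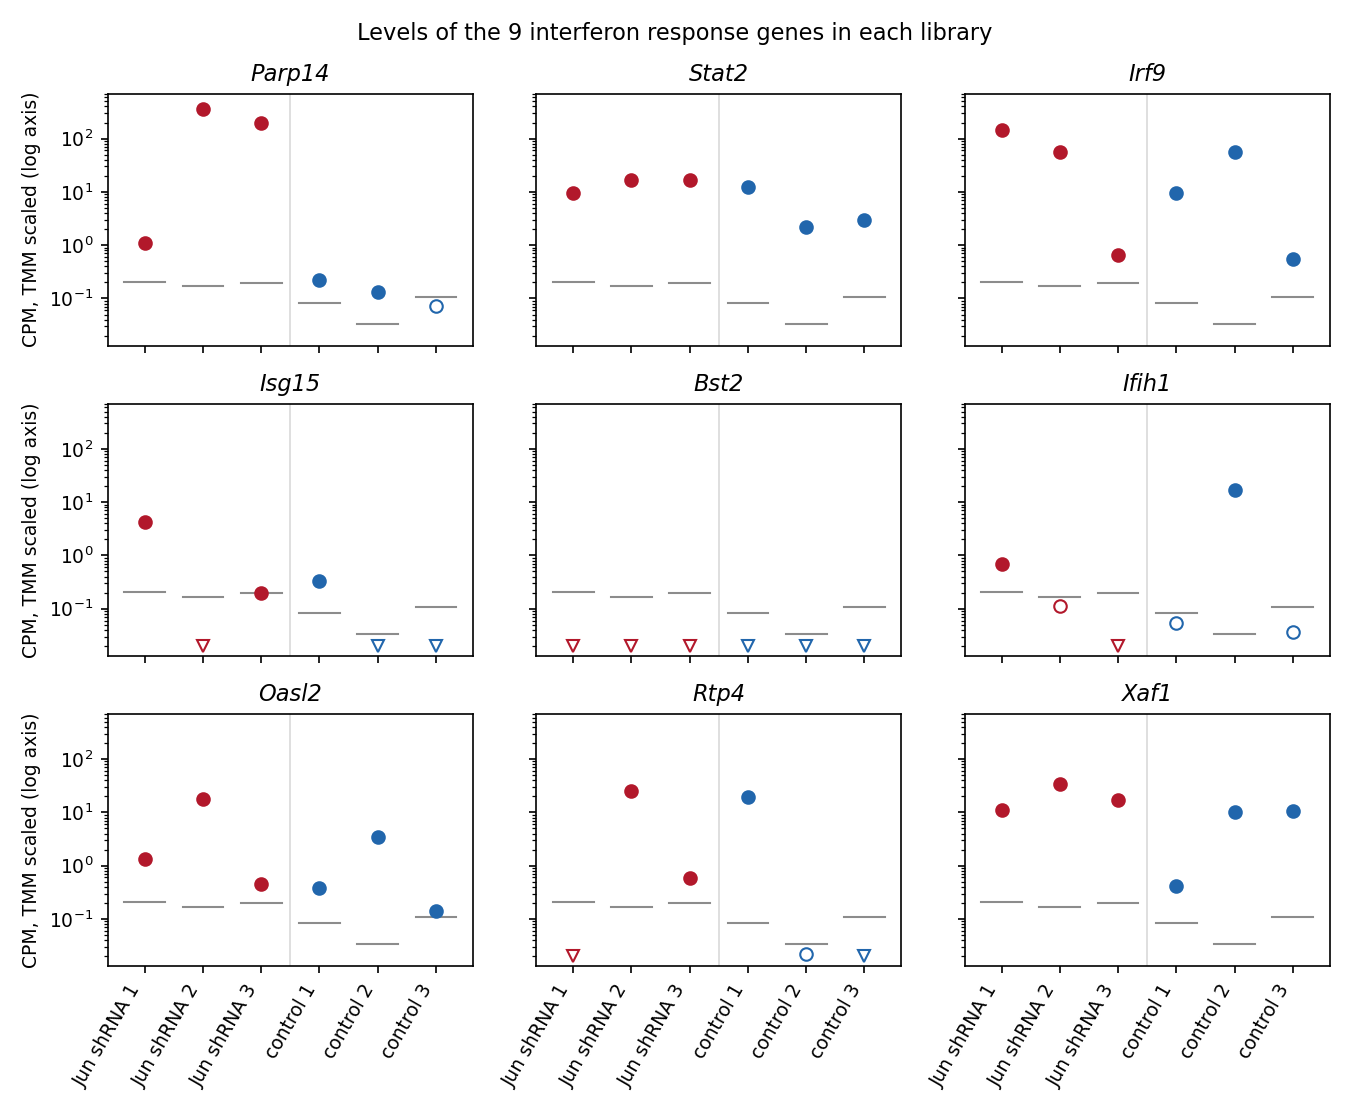
Each panel plots the level of a gene in CPM after TMM scaling, on a log axis, in Jun shRNA libraries (red, left) and control libraries (blue, right). Grey bars mark 3 counts in that library, open symbols lie below it and triangles stand for values under 0.02 CPM, including 0. Parp14 is high in Jun shRNA libraries 2 and 3, and the other genes are high in other sets of libraries.

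Parp14 had 1.09, 358 and 199 CPM in Jun shRNA libraries 1, 2 and 3, against 0.219, 0.133 and 0.0720 CPM in control libraries. Every Jun shRNA library was above every control library, but library 1 held only 16 counts and resembled the controls more than it resembled libraries 2 and 3. The highest Jun shRNA library was 329 times the lowest, and the fitted log2 fold change was 10.31. Per length, in TPM (transcript counts over length, scaled to a common total), Parp14 reached 98.6 and 40.1 TPM in Jun shRNA libraries 2 and 3, which placed it in the top 8.47% and 12.6% of genes with any count there. In Jun shRNA library 1 it had 0.377 TPM, and in control libraries 0.060, 0.042 and 0.021 TPM.

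The coding transcript did not take part in that level. It had 13, 0 and 0 estimated counts in Jun shRNA libraries 1, 2 and 3, against 14, 13 and 0 in control libraries. The short retained-intron transcript had 0, 574.5 and 259.8 counts in Jun shRNA libraries, against 0 in all control libraries. The long retained-intron transcript had 8.5, 31.8 and 19.6 counts in Jun shRNA libraries, against 0, 4.2 and 2 in control libraries. In the 2 libraries that set the gene's level, 100% of its transcript counts were in retained-intron models, and the coding form was at 0 counts.

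The deposited gene counts of Parp14 were also far above its transcript counts. The gene table gave 6354.7 and 3037.0 counts in Jun shRNA libraries 2 and 3, where the transcripts summed to 606.3 and 279.4, ratios of 10.5 and 10.9. Across 56179 values of genes with a transcript sum of at least 50, 43.5% of deposited gene counts lay within 10% of the transcript sum. When gene counts were rebuilt as the gene's TPM times its mean transcript length over the libraries, scaled to the library total, 62.3% lay within 10%. With 250 bases also taken off each length, the best of 5 settings tried, 67.8% did, and the rebuilt values for Parp14 were 6008 and 2799. By that construction reads of a short transcript count more in a gene whose other transcripts are long. With transcript counts summed per gene, an alternative chosen after the tables had been compared, Parp14 had 1.53, 34.7 and 18.2 CPM in Jun shRNA libraries, against 0.376, 0.194 and 0.0753 CPM in control libraries. The fitted log2 fold change was then 6.37 in place of 10.31.

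**Figure D2:**
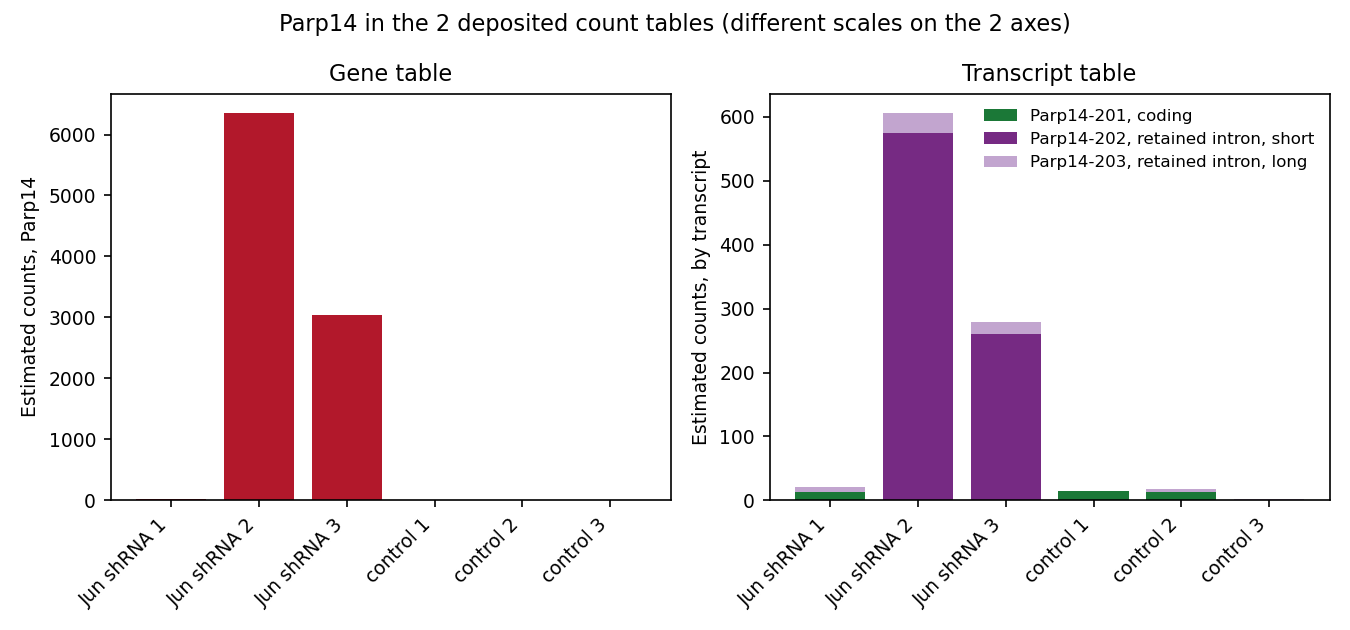
Bars give estimated counts of Parp14 in each library, Jun shRNA on the left and control on the right of each panel, in the gene table (left panel) and by transcript in the transcript table (right panel). The vertical axes differ: Jun shRNA library 2 stands at 6354.7 in the gene table and at 606.3 in the transcript table, nearly all of it in the short retained-intron transcript.

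Stat2 and Irf9, whose products act in the ISGF3 complex, did not follow the Parp14 pattern across libraries. Among the 5 tested genes of the panel other than Parp14, which are Stat2, Irf9, Oasl2, Rtp4 and Xaf1, 0 passed an adjusted p of 0.05 in edgeR's quasi-likelihood test, and 0 had an unadjusted p below 0.05. Of all 12815 tested genes 214 passed (1.67%), 0.32% as higher and 1.35% as lower in Jun shRNA. At an unadjusted p below 0.05 by that test, 6.13% were higher and 10.7% lower. DESeq2, limma-voom and limma-trend on the deposited normalised values also called 0 of the panel's genes other than Parp14. The 5 log2 fold changes had a median of 1.58, against −0.12 over all tested genes. Without Jun shRNA library 2 the panel's median, over the 6 genes then tested, was 0.27, against −0.24 over all genes.

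Stat2 (chr10:128270559-128292849), the STAT protein specific to type I and type III interferon signalling, had 9.32, 16.9 and 16.6 CPM in Jun shRNA libraries, against 12.2, 2.23 and 2.92 CPM in control libraries. Control library 1 lay between the Jun shRNA libraries, with a fitted log2 fold change of 1.30 (SE 1.42, adjusted p = 0.675 by edgeR). Coding Stat2 transcripts had 0, 287.8 and 556.0 counts in Jun shRNA libraries, against 856.3, 268 and 12 in control libraries, unscaled for depth. In TPM the more abundant coding transcript had 0, 4.52 and 7.95 in Jun shRNA libraries, against 4.43, 0.675 and 0.0816 in control libraries. Jun shRNA library 1 was thus lowest in coding transcripts, though its gene level exceeded that of control libraries 2 and 3. All 45.3 Stat2 transcript counts of Jun shRNA library 1 were in retained-intron models.

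Irf9 (chr14:55603571-55610030), the DNA-binding partner in ISGF3, had 143, 55.8 and 0.654 CPM in Jun shRNA libraries, against 9.60, 56.3 and 0.540 CPM in control libraries. Each group held a library close to 56.3 CPM and a library close to 0.540 CPM. Its log2 fold change was 1.59 (SE 1.80, adjusted p = 0.689 by edgeR). Jun shRNA library 1, the highest for Irf9, was the lowest of its group for Parp14, and Jun shRNA library 3, high for Parp14, was among the lowest for Irf9. Retained-intron models took 71.5% of the Irf9 transcript counts in Jun shRNA library 2, 22.7% in Jun shRNA library 1 and 87.4% of only 27 counts in control library 3.

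Irf7, the factor that amplifies the interferon loop, had 1, 2 and 3 counts in Jun shRNA libraries and 605, 4 and 3 counts in control libraries, and was not tested.

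Ifih1 (chr2:62595798-62646255) encodes MDA5, a cytoplasmic sensor of long double-stranded RNA. It had 10, 2 and 0 counts in Jun shRNA libraries, against 2, 1518 and 1 in control libraries, equal to 0.681, 0.113 and 0 CPM in Jun shRNA libraries and 0.0549, 16.9 and 0.0360 CPM in control libraries. Control library 2 alone held a sizeable level, nearly all of it (99.1%) in coding transcripts. The gene did not pass the filter on low counts.

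Isg15 (chr4:156199424-156200818) encodes a ubiquitin-like modifier and is a standard reporter of the response. It had 63, 0 and 3 counts in Jun shRNA libraries, against 12, 1 and 0 in control libraries, and was not tested. Its highest level was 4.29 CPM, in Jun shRNA library 1, while Jun shRNA library 2, the highest for Parp14, had 0 counts, where 3 counts would be 0.169 CPM. Bst2 (chr8:71534255-71537456), the tetherin that holds budding viruses at the cell surface, had 1 count in the 6 libraries together, in control library 2. A Bst2 level under 0.169 to 0.204 CPM was not detectable in Jun shRNA libraries at these depths. The 2 promoters printed above thus belong to genes at or near 0 counts in most libraries.

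Oasl2 (chr5:114896936-114912234), an oligoadenylate synthetase-like antiviral protein, had 1.36, 18.0 and 0.458 CPM in Jun shRNA libraries, against 0.384, 3.40 and 0.144 CPM in control libraries. The groups overlapped, and the fitted log2 fold change of 2.33 (SE 1.90, adjusted p = 0.570 by edgeR) became −0.49 without Jun shRNA library 2. The annotated coding transcripts had 0 counts in all libraries except for 1.2 in control library 1. In Jun shRNA library 2, 356.0 of 376.5 transcript counts were in a nonsense-mediated decay model, and in control library 2 all 350.7 were in a retained-intron model.

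Rtp4 (chr16:23520291-23614222), a receptor transporter protein that interferon raises in many tissues, had 0, 25.2 and 0.589 CPM in Jun shRNA libraries, against 19.6, 0.0222 and 0 CPM in control libraries. A single library in each group carried nearly all counts, and both were of coding transcripts, 562 in Jun shRNA library 2 and 801 in control library 1. edgeR gave a log2 fold change of 0.40 (SE 2.79, adjusted p = 0.955). It was −4.47 without Jun shRNA library 2, −0.14 without control library 2 and −0.13 without control library 3, and without control library 1, which carried the control counts, Rtp4 did not pass the filter.

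Xaf1 (chr11:72301629-72313733), a pro-apoptotic interferon-induced gene, was the only tested gene of the panel besides Parp14 with groups that did not overlap. It had 11.3, 34.6 and 17.3 CPM in Jun shRNA libraries, against 0.411, 10.3 and 10.4 CPM in control libraries, where 28.3% of all tested genes had groups without overlap, 12.6% with Jun shRNA higher. Its log2 fold change was 1.58 (SE 1.53, adjusted p = 0.633 by edgeR). Coding Xaf1 transcripts had 79.5, 97.7 and 338.8 counts in Jun shRNA libraries, against 29.6, 1357.0 and 169.6 in control libraries, unscaled for depth. In TPM the gene had 10.103, 34.4 and 17.5 in Jun shRNA libraries, against 0.407, 10.046 and 7.35 in control libraries. By that measure the groups were narrowly apart. With transcript counts summed per gene, Xaf1 had 5.56, 10.98 and 22.5 CPM in Jun shRNA libraries, against 0.859, 15.5 and 6.51 CPM in control libraries, so the groups overlapped, and the log2 fold change was 0.77 (adjusted p = 0.828).

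**Figure D3:**
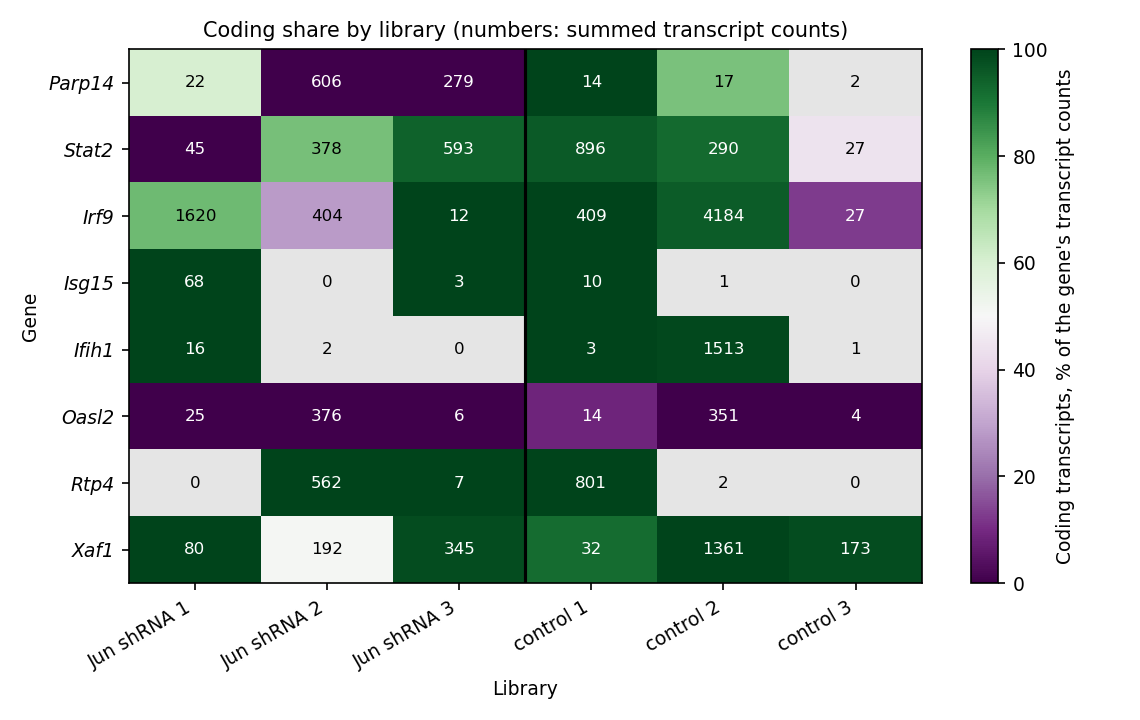
Colours give the percentage of a gene's transcript counts that lay in coding transcripts, in Jun shRNA libraries (left of the line) and control libraries (right), and the numbers are the summed transcript counts. Grey cells hold under 3 counts, and Bst2 is left out. Parp14 in Jun shRNA libraries 2 and 3, Stat2 in Jun shRNA library 1 and Oasl2 in 5 of 6 libraries had 0 coding counts.

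Across the 45 annotated transcripts of the 9 genes, 10 passed the filter on low counts, 9 of them outside Parp14. Of these 9, 0 passed an adjusted p of 0.05 in edgeR's test and 0 had an unadjusted p below 0.05, where 0.662% of 20706 tested transcripts passed. Over all coding genes, retained-intron models took 8.0%, 9.63% and 7.85% of transcript counts in Jun shRNA libraries, against 2.78%, 3.56% and 3.35% in control libraries. That share was higher in every Jun shRNA library, including library 1 where Parp14 was low, and its part in the Parp14 level was not tested.

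Levels differed widely between libraries of a group, in the panel and over all tested genes. Taking 3 counts as the floor, the highest library exceeded the lowest by 219 times in Jun shRNA and 104 times in control for Irf9, by 123 and 588 times for Rtp4, by 39.3 and 23.6 times for Oasl2, and by 4.02 and 205 times for Ifih1. Stat2 varied by 1.81 and 5.46 times and Xaf1 by 3.07 and 25.3 times. For all tested genes the median ratio was 6.01 in Jun shRNA and 5.42 in control, and 39.5% of genes in Jun shRNA and 38.8% in control varied more than 10-fold within the group. Genes that varied more than 100-fold were 9.57% in Jun shRNA and 13.8% in control. These ratios were computed after the values had been seen.

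The genes with a pattern most like that of Parp14 were found by the root mean square distance of log2 CPM, each gene centred on its mean over the 6 libraries. The nearest was Atad5, which encodes a factor that unloads the replication clamp, at a distance of 0.976, while Parp14 lay 4.72 from its own mean. Atad5 had 2.38, 104 and 79.7 CPM in Jun shRNA libraries, against 0.0549, 0.0333 and 0.0720 CPM in control libraries. Its counts in Jun shRNA libraries, 33, 1775 and 1164, were all in a transcript annotated as a processed transcript without coding sequence. Next came Cdh12, a cadherin, at 1.23, with 1.43, 35.7 and 38.7 CPM in Jun shRNA libraries, against 0, 0 and 0.0360 CPM in control libraries. The antisense gene 4930453C13Rik followed at 1.60, then 1700066M21Rik at 1.64 and E130308A19Rik at 1.65. These 5 genes lie on chromosomes 11, 15, 13, 1 and 4. None is on the interferon-stimulated list, which holds only 38 of 12815 tested genes with Parp14 left out. In all, 11 of the 12815 tested genes lay within a distance of 2. None of the panel's other genes was among them, which would hold for most sets of so few genes. Since the likeness is to a gene chosen for these values, the differences between groups carry no test.

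**Figure D4:**
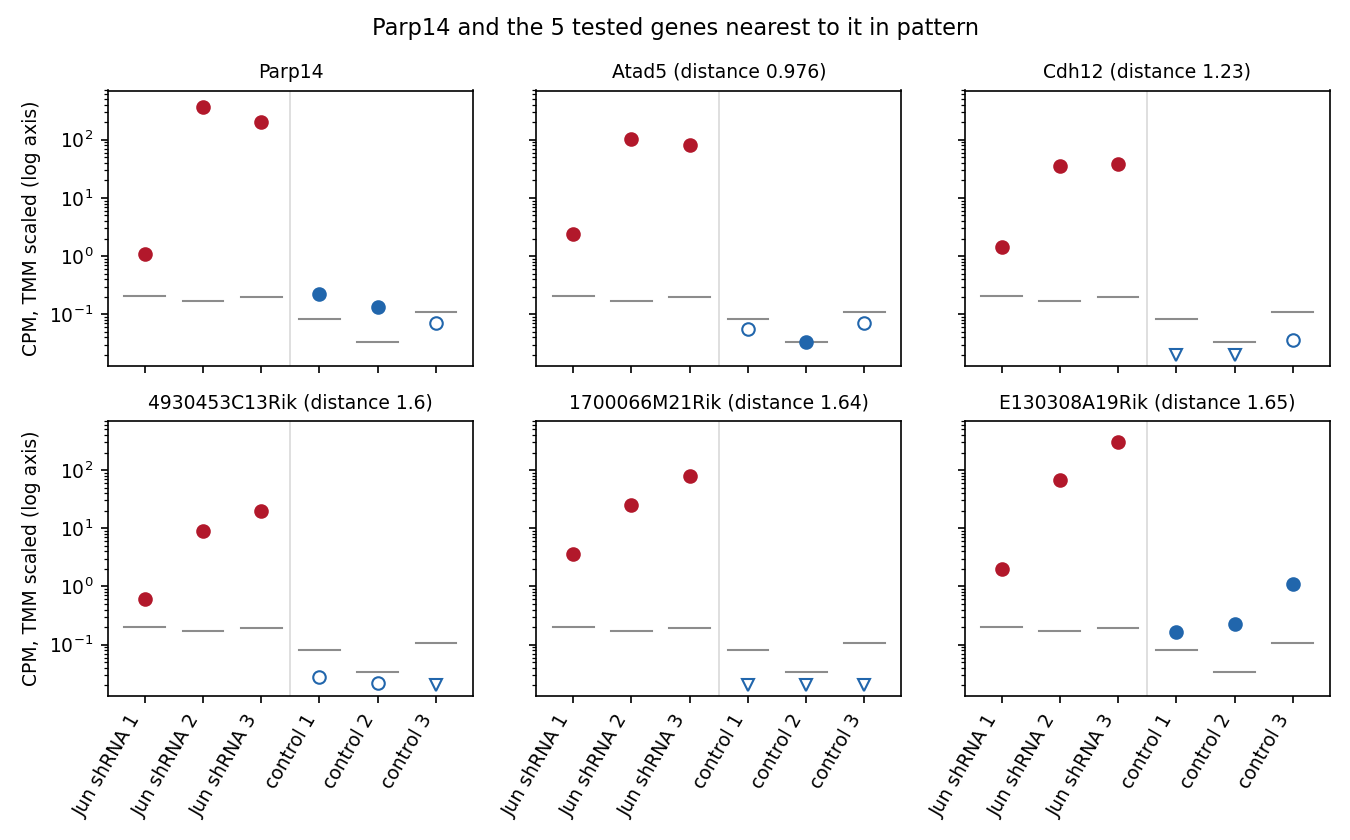
Panels give the level of Parp14 and of the 5 tested genes with the smallest distance to it, in CPM on a log axis, with Jun shRNA libraries in red on the left and control libraries in blue on the right. Grey bars mark 3 counts, open symbols lie below it and triangles stand for values under 0.02 CPM. All 6 genes are low in Jun shRNA library 1 and high in Jun shRNA libraries 2 and 3.

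Genes beside Parp14 did not share its pattern. Of the 10 tested genes within 250000 bases on chromosome 16, 0 passed the threshold in edgeR's test, where 1.67% of all tested genes passed. With so few genes, that count does not set them apart from other genes. Dtx3l, an E3 ligase that lies 54967 bases away, had 0.953, 0.508 and 0.131 CPM in Jun shRNA libraries, against 4.69, 2.53 and 0.756 CPM in control libraries (log2 fold change −2.32, SE 1.32, adjusted p = 0.404 by edgeR). Parp9, whose product partners that ligase and which interferon induces with Parp14 and Dtx3l, had 0, 0.790 and 1.18 CPM in Jun shRNA libraries, against 0.494, 20.2 and 0 CPM in control libraries (log2 fold change −3.39, SE 2.50, adjusted p = 0.527). Hspbap1, the nearest gene at 4397 bases, had 0.204, 6.77 and 1.05 CPM in Jun shRNA libraries, against 0.439, 80.0 and 0.720 CPM in control libraries. Sema5b, Dirc2, Gm15564, Kpna1, Fam162a and Ccdc58 overlapped between the groups. Wdr5b was the only neighbour without overlap, at 4.15, 2.20 and 0.196 CPM in Jun shRNA libraries and 33.8, 73.3 and 7.63 CPM in control libraries. Its unadjusted p was 0.0347 and its adjusted p 0.256 by edgeR. Over all tested genes 28.3% had groups without overlap, 15.7% with Jun shRNA lower.

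Upstream of the panel, interferon transcripts were at or near 0. Of 20 interferon ligand genes 15 had 0 counts in all 6 libraries, among them Ifnb1 and Ifng, and none passed the filter on low counts. Their summed level was 0, 0 and 0 CPM in Jun shRNA libraries, against 0.0549, 0.144 and 0.0720 CPM in control libraries. Among 9 receptor and JAK kinase genes 8 were tested, and 0 passed the threshold in either direction, where 1.67% of all tested genes passed. At an unadjusted p below 0.05 by edgeR, 2 were lower, where 10.7% of all tested genes were. The median log2 fold change of the list was −0.85. Ifngr1, the ligand-binding chain of the interferon gamma receptor, had 10.7, 0.282 and 11.2 CPM in Jun shRNA libraries, against 162, 197 and 149 CPM in control libraries. Its groups did not overlap, and its log2 fold change was −4.52 (SE 1.24, adjusted p = 0.103 by edgeR). Tyk2, the kinase bound to the type I receptor, had 15.2, 11.2 and 17.9 CPM in Jun shRNA libraries, against 0.439, 2.73 and 0.360 CPM in control libraries (log2 fold change 3.64, SE 1.62, adjusted p = 0.298). Ifngr1 passed as lower with DESeq2, both limma-trend settings and edgeR without the filter on low counts, and Tyk2 passed as higher with DESeq2 only, of the alternatives run. Il10rb and Jak1 had log2 fold changes of −3.84 and −1.25.

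Of 20 nucleic acid sensors and adaptors 7 were tested and 0 passed the threshold, by edgeR or DESeq2. Those tools called 1.67% and 6.61% of all genes they tested, so 0 called in so short a list does not set it apart. By edgeR 1 of the 7 was higher at an unadjusted p below 0.05, where 6.13% of all tested genes were. The median log2 fold change of the list was −0.47. Ifi204, a DNA sensor, was higher in every Jun shRNA library, at 1.29, 1.97 and 2.03 CPM, than in any control library, at 0.137, 0.255 and 0.504 CPM (log2 fold change 2.56, SE 1.08, adjusted p = 0.279 by edgeR). Ddx58, which encodes the RNA helicase RIG-I, had 0.613, 4.005 and 3.93 CPM in Jun shRNA libraries, against 0.219, 0.722 and 0.648 CPM in control libraries (log2 fold change 2.42, adjusted p = 0.375). The adaptors Myd88 and Mavs had log2 fold changes of −5.44 and −3.89, with their highest levels, 48.2 and 173 CPM, in control libraries 1 and 2. Of the 9 STAT and IRF factors 6 were tested, 0 passed by edgeR or DESeq2, 0 had an unadjusted p below 0.05, and the median was 0.29. Irf5, the tested factor with the smallest p, had a log2 fold change of −2.98 (adjusted p = 0.461). Of 5 genes of ISG15 conjugation 2 were tested, Ube2l6 and Herc6, with log2 fold changes of 1.30 and 0.46, and 0 passed by edgeR or DESeq2 or had an unadjusted p below 0.05.

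A wider list of interferon-stimulated genes was read in the same fit, with Parp14 left out and the other panel genes in it. Of its 90 genes 86 had at least 1 count, 38 were tested, and 0 passed the threshold in edgeR's test. At an unadjusted p below 0.05 there were 0 higher and 7 lower genes, where 6.13% of all tested genes were higher and 10.7% lower by that rule. limma-voom called 4 of 38, all lower, where it called 3.45% of all genes. DESeq2 called 12 of the 71 to which it gave a p-value, 2 higher and 10 lower. Of all genes it called 6.61%, 855 higher and 1144 lower. Slfn9 was among those it called higher (log2 fold change 3.58, adjusted p = 0.0213 by DESeq2). The median log2 fold change was −0.14, against −0.12 for all tested genes, and 18 values were positive and 20 negative. The list's median was −1.0 without Jun shRNA library 2 and −0.99 without Jun shRNA library 3, against −0.24 and −0.26 over all genes, and 0.31 with the replicate block, against −0.13. Groups did not overlap for 4 tested genes that were higher and 7 that were lower in Jun shRNA, where 12.6% of all tested genes were higher and 15.7% lower without overlap. The summed level of the list was 1029, 1267 and 1142 CPM in Jun shRNA libraries, against 909, 1509 and 864 CPM in control libraries. Of the 40 listed genes with the GAAA element in their promoter 16 were tested, of which 7 had positive and 9 negative log2 fold changes.

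Among tested genes, the 4 without overlap that were higher were Slfn9, Samhd1, Slfn5 and Xaf1. Samhd1, which degrades deoxynucleotides, had 4.83, 34.7 and 4.84 CPM in Jun shRNA libraries, against 0.165, 0.777 and 2.99 CPM in control libraries (log2 fold change 3.50, adjusted p = 0.359 by edgeR). Many listed genes did not pass the filter on low counts. Ifit1 had 1, 4 and 2 counts in Jun shRNA libraries and 0 in all control libraries, Ifit3 had 0 counts in all 6, and Ifit2 had at most 7. Rsad2 had 1, 1 and 11 counts in Jun shRNA libraries, against 0, 1 and 0 in control libraries. Cxcl10 had 0, 0 and 1 counts in Jun shRNA libraries, against 0, 1363 and 0 in control libraries, where control library 2 was also the library with Ifih1 counts. Others were high in 1 library of either group: Ifi35 had 0, 0 and 349 counts in Jun shRNA libraries, against 0, 0 and 1 in control libraries, and Oas1a had 0 in all Jun shRNA libraries, against 618, 0 and 0 in control libraries. Ifit1, Ifit2, Ifit3, Rsad2, Cxcl10, Ifi35 and Oas1a were picked out after their values had been seen.

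The lower end of the list held Tgtp1, an interferon-inducible GTPase, with 0.476, 0.113 and 0.720 CPM in Jun shRNA libraries, against 24.6, 107 and 56.3 CPM in control libraries (log2 fold change −7.16, SE 1.53, adjusted p = 0.0553 by edgeR). Ifitm3, a membrane protein that blocks virus entry, had 0, 0 and 0.0654 CPM in Jun shRNA libraries, against 48.5, 24.996 and 14.4 CPM in control libraries (adjusted p = 0.0553), and Ifitm2 and Irgm1 had adjusted p of 0.0564 and 0.0747. None passed in this fit. Ifitm2, Ifitm3 and Tgtp1 passed as lower under DESeq2, limma-voom, both limma-trend settings and edgeR without the filter on low counts. Irgm1 passed as lower under DESeq2 and under edgeR without that filter. Tgtp1 and Irgm1 have near-identical copies or patch copies between which counts may be split, so their levels are uncertain. In the same libraries 4 of 14 tested microglia and macrophage markers were called lower, where 1.35% of all tested genes were. Of these 14 markers, 1 had a positive and 13 a negative log2 fold change, with a median of −7.77. Lyz2 and Ctss, 2 of their most abundant markers, had log2 fold changes of −9.74 and −7.90 (adjusted p of 0.00512 and 0.00785 by edgeR), and their part in the lower interferon-stimulated genes was not tested.

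MHC class I genes and their peptide-processing partners were the only pathway list with called genes. Of 13 genes 10 were tested, 0 were called higher and 2 lower, with a median log2 fold change of −1.56, where 1.35% of all tested genes were called lower. H2-D1, a classical class I heavy chain, had 8.98, 4.85 and 31.3 CPM in Jun shRNA libraries, against 325, 600 and 166 CPM in control libraries (log2 fold change −4.59, SE 0.907, adjusted p = 0.0454 by edgeR). Psmb8, an immunoproteasome subunit, had 0.408, 0.0564 and 0.458 CPM in Jun shRNA libraries, against 52.3, 129 and 26.4 CPM in control libraries (log2 fold change −7.81, SE 1.58, adjusted p = 0.0485). H2-K1 had a log2 fold change of −3.47 (adjusted p = 0.228) and B2m, the shared light chain, −0.67 (adjusted p = 0.509). Psmb10, another immunoproteasome subunit, was higher without overlap, at 59.7, 30.4 and 71.7 CPM in Jun shRNA libraries and 10.9, 5.05 and 15.1 CPM in control libraries (adjusted p = 0.320). The calls of H2-D1 and Psmb8 were both lost with scaling to library totals, with adjusted p of 0.0605 and 0.0633 by edgeR. Both were also lost with the median of ratios, with 0.0507 and 0.0564. With limma-voom H2-D1 was not called (adjusted p = 0.144), while Psmb8 was (adjusted p = 0.0238). The summed level of microglia and macrophage markers, given above, was lower in the same libraries, and its part in these calls was not tested.

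**Figure D5:**
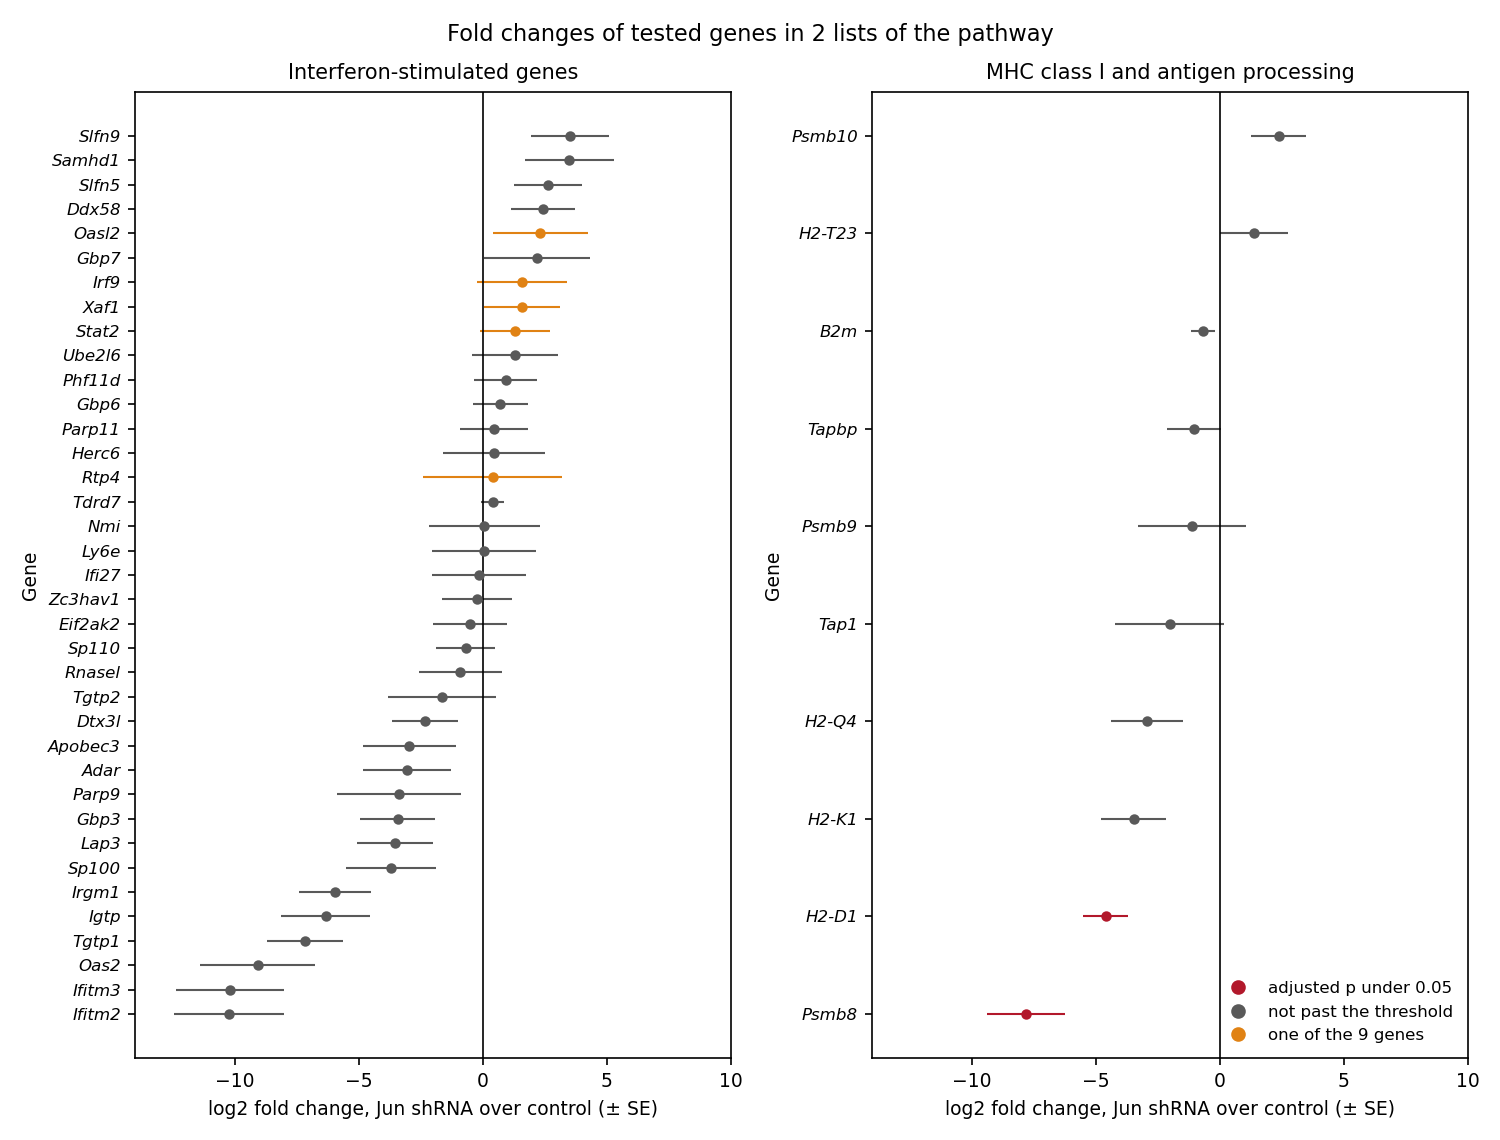
Points give the log2 fold change of Jun shRNA over control, with SE bars, for 37 of the 38 tested interferon-stimulated genes without Parp14 (left) and the 10 tested MHC class I genes (right). The 5 tested genes of the panel are orange, at 0.40 to 2.33 in the left list (without Jun shRNA library 2, Oasl2 was at −0.49 and Rtp4 at −4.47), and H2-D1 and Psmb8, the 2 genes past the threshold, are red.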

How the data were processed

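RNA was measured in 6 libraries, 3 of rods given the Jun shRNA plasmid and 3 given the scrambled control, grouped by the labels. The authors deposited estimated counts per gene and per transcript, and a gene table they normalised. The submitters' processing notes list Trimmomatic 0.39, kallisto 0.44.0 and edgeR 3.28.1 with no step for any of them. The genome build is not stated in those notes or the labels, but the deposited coordinates of all 9 genes equal those of GENCODE vM21 (GRCm38). The deposited estimated counts were not whole and were rounded before tests. The normalised table was read as a signal relative to a factor of the authors, since its columns sum to 1250540 to 2385210. It was used only for limma-trend.

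In R 4.3.3 the quasi-likelihood test of edgeR 4.0.16 was run on group alone after filterByExpr and TMM scaling. Adjusted p-values are Benjamini-Hochberg values over 12815 genes, with 0.05 as the threshold. SE is the log2 fold change over the square root of F, and Jun shRNA is over control. Transcripts were tested likewise. TPM was computed from deposited transcript counts and vM21 lengths. Distances used a prior count of 2. Sequences of promoters are from RefSeq, and the Parp14 stretch is from vM21 transcripts. The panel and the gene lists were chosen with earlier results of these data known.

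Named were all 9 genes, Jun, Irf7, Parp9 and Dtx3l, list genes past the threshold and up to 4 with the smallest p per list, tested genes within 250000 bases of Parp14, its 5 nearest in pattern, and up to 3 abundant markers per cell type. A further gene that this rule names is not reported here. Alternatives were other scalings, filters, DESeq2 1.42.0, limma 3.58.1 (voom and trend), thinning, no patch sequences, a replicate block, single libraries left out and summed transcripts. The functions were tested on simulated data. Floors of 3 counts cover counting error only, since reads carry no molecular identifiers, and estimated counts make them approximate.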

Additional observations from a re-analysis of the deposited data

How the results depend on the processing

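No panel gene other than Parp14 was called under any alternative that was run, and neither was any of their transcripts. Without single libraries the log2 fold change of Oasl2 ran from −0.49 to 4.64 and that of Rtp4 from −4.47 to 0.98, with no value without control library 1, where Rtp4 was filtered out. Both lowest values came without Jun shRNA library 2, and Rtp4 was also negative, at −0.14 and −0.13, without control libraries 2 and 3. The genes called over the whole table, 214, became 737 with no filter, 1999 with DESeq2, 442 with limma-voom, 615 and 553 with limma-trend on the deposited values plus 0.5 and 2, 140 after thinning to the smallest total and 36 to 110 without single libraries. With library totals in place of TMM, 147 genes were called, 68 higher and 79 lower, against 41 and 173, and the median log2 fold change over all genes was 0.38 in place of −0.12. The called interferon-stimulated genes, 0, became 4 with no filter, 12 with DESeq2, 4 with limma-voom, 4 and 3 with limma-trend plus 0.5 and 2, and 1 with transcript counts summed per gene, an alternative chosen after seeing the data. The 2 called pathway genes became 0 with the median of ratios, library totals, the upper quartile or thinning, 4 with no filter, 7 with DESeq2, 4 with both limma-trend settings and 0 to 1 without single libraries. With limma-voom 2 pathway genes were called, Ago3 as higher and Psmb8 as lower, and H2-D1 was not. Parp14 had a log2 fold change of 5.31 with limma-trend plus 2, where a pseudocount shrinks low values. With the replicate number as a block, 97 genes and 0 pathway genes were called. Same-numbered libraries did not deviate together (correlations of 0, 0.008 and −0.015), so the block has no support as a pairing. Jun stayed positive and uncalled under all alternatives, with log2 fold changes of 0.23 to 1.52. Causes of these changes were not tested, and depth, which differs between the groups, limits values near 3 counts.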

Other observations

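Genes that process small RNAs, through which a hairpin is cut and loaded, were read as a further list. All 10 were tested, and 0 passed an adjusted p of 0.05 in edgeR's test, where 1.67% of all tested genes passed. At an unadjusted p below 0.05 by that test, 1 was higher and 1 lower, where 6.13% and 10.7% of all tested genes were. The median log2 fold change of the list was −1.27. Ago3, which encodes an Argonaute protein, had 586, 627 and 536 CPM in Jun shRNA libraries, against 15.9, 36.8 and 0.756 CPM in control libraries (log2 fold change 5.03, SE 1.13, adjusted p = 0.0602 by edgeR). The groups lay far apart and the 3 Jun shRNA libraries were close together. The coding transcript did not share that order, while a short transcript did. The coding transcript of 15595 bases had 36.9, 347.4 and 1086.9 counts in Jun shRNA libraries, against 977.1, 4095 and 103 in control libraries. The short one of 613 bases, annotated as a processed transcript, had 1063.1, 1298 and 1006.1 counts in Jun shRNA libraries, against 38.9, 100.8 and 0 in control libraries. These transcript counts are not scaled for depth. With transcript counts summed per gene, the log2 fold change of Ago3 was 1.97 (adjusted p = 0.361 by edgeR), against 5.03 from the deposited gene counts. Ago3 passed as higher with DESeq2, limma-voom, both limma-trend settings and edgeR without the filter on low counts, and Prkra passed as lower with DESeq2. Prkra, which encodes the PACT partner of Dicer and an activator of the RNA-dependent kinase PKR, was lower without overlap, at 13.3, 6.60 and 0.327 CPM in Jun shRNA libraries and 79.9, 46.6 and 198 CPM in control libraries (log2 fold change −4.01, SE 1.37, adjusted p = 0.187 by edgeR).

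Among 15 genes of the PARP family other than Parp14, 11 were tested and 0 passed in edgeR's test, where 1.67% of all tested genes passed. By the unadjusted p of that test, 1 was higher below 0.05, where 6.13% of all tested genes were. The median log2 fold change of the 11 was 0.95, with 9 positive and 2 negative values, against −0.12 over all tested genes. Tnks2, a tankyrase that marks proteins for degradation, had 314, 193 and 467 CPM in Jun shRNA libraries, against 94.8, 89.9 and 182 CPM in control libraries (log2 fold change 1.41, SE 0.551, adjusted p = 0.240 by edgeR). Tiparp, a mono-ADP-ribosyltransferase, had 14.3, 36.8 and 86.6 CPM in Jun shRNA libraries, against 3.73, 11.9 and 10.4 CPM in control libraries (log2 fold change 2.40, SE 1.26, adjusted p = 0.367 by edgeR). Both were higher in every Jun shRNA library than in any control library, as were 12.6% of all tested genes. Untested Parp10 had 0, 0 and 1 counts in Jun shRNA libraries, against 1, 547 and 16 in control libraries, and DESeq2 called it lower.

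Markers of vascular and blood cells summed to 21.5, 70.1 and 66.9 CPM in Jun shRNA libraries, against 215, 195 and 349 CPM in control libraries. The haemoglobin genes Hbb-bs and Hba-a1 made up most of the control level, and Hba-a1 was at 0 counts in all Jun shRNA libraries. Kdr went the other way, at 18.1, 56.5 and 62.0 CPM in Jun shRNA libraries and 9.74, 26.8 and 14.5 CPM in control libraries. Its log2 fold change was 1.42 (SE 1.12, adjusted p = 0.553 by edgeR). Of the 7 tested markers of this list, 1 had a positive and 6 a negative log2 fold change. Markers of Müller glia and astrocytes summed to 311, 385 and 376 CPM in Jun shRNA libraries, against 2134, 2344 and 1971 CPM in control libraries. Clu was the most abundant, with a log2 fold change of −3.61. Slc1a3 was not lower, at 124, 104 and 130 CPM in Jun shRNA libraries and 63.3, 99.96 and 158 CPM in control libraries. Of the 14 tested markers of this list, 4 had positive and 10 negative log2 fold changes. Markers of lymphocytes and natural killer cells, cells that respond to interferon, summed to 3.13, 10.4 and 1.51 CPM in Jun shRNA libraries, against 57.7, 0.489 and 1.37 CPM in control libraries. Control library 1 held that level, mostly as Cd8a at 29.5 CPM and Cd4 at 15.7 CPM, and was also the library with 605 counts of Irf7. The part of these markers in the levels of the interferon genes was not tested.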
